A study of Mus musculus with 69 samples.

Results

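Lungs that had received a high dose of titanium dioxide nanoparticles were compared with lungs that had received a low dose, 28 days after the exposure. The arrays were chosen by the dose and time in the labels, 10 at 162 µg and 10 at 18 µg, which makes 20 of the 69 arrays of the series. Each dose held 5 mice given NRCWE-001, the particle without surface charge, and 5 given NRCWE-002, its positively charged counterpart. All were female C57BL/6 mice without any engineered allele named in the labels, 5 to 7 weeks old on arrival and kept for 1 to 3 weeks before a single instillation of particles into the windpipe. The particles were dispersed in water with 2% serum. The 4 vehicle mice of day 28 and the 10 mice of day 28 at 54 µg (5 per particle) took no part in the main comparison and are given as a background. Both sets entered the alternative fit of all 69 arrays, and the 54 µg mice also an alternative slope over dose. The hour of the day at which lungs were taken is not given in the sources used here.

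RNA from a piece of frozen lung of each mouse was labelled with Cy5 and hybridised to its own array beside a commercial mouse reference RNA labelled with Cy3. Every level below is a log2 ratio of lung to reference, so 1 unit is a doubling, and every difference is the mean at 162 µg minus the mean at 18 µg on that scale. Lung genes were present on all 20 arrays. The surfactant gene Sftpc had levels from 6.90 to 8.28, the alveolar type 1 marker Ager from 4.01 to 6.14, the club cell marker Scgb1a1 from 5.76 to 7.91 and the endothelial marker Cdh5 from 4.01 to 5.80. Between 61.9% and 86.7% of spots were well above background at 162 µg, and between 61.4% and 87.4% at 18 µg. Pairs of arrays correlated at 0.843 to 0.987 across genes, with a median of 0.947 within groups and 0.949 between groups. The 20 arrays lay on 11 slides scanned on 9 days, and duplicateCorrelation estimated a correlation of 0.634 between arrays of a slide. A lung is a mixture of cells, and fewer cells of a type cannot be told apart from less RNA in each of them.

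Several gene systems recur below. Interferons are secreted by infected or activated cells and switch on a large set of genes, many of which carry the interferon-stimulated response element in their promoters. The set includes antiviral enzymes (Oas and Ifit genes), chemokines that draw T cells (Cxcl9, Cxcl10) and GTPases that guard vacuoles in macrophages (Gbp and Irgm genes). Macrophages clear inhaled particles with scavenger, Fc and lectin receptors and carry them in lysosomes for long periods. Heat shock chaperones are driven by HSF1 through the heat shock element. The circadian clock runs in lung as in other organs: ARNTL with CLOCK binds the E-box and drives Per, Cry, Nr1d1 and the output genes Dbp, Tef and Hlf, so Arntl and these genes peak at opposite times of day.

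Promoters of genes on which the results turn are shown first, because they carry the sites named above. They are the 250 bases before the annotated start, 5′ to 3′ on the strand of the gene, from RefSeq on GRCm38.p6. For Gbp2 (chr3:142620413-142620662, plus strand), Irgm1 (chr11:48871421-48871670, minus strand) and Irgm2 (chr11:58214727-58214976, plus strand), 3 of the 12 genes with the smallest p among those higher at 162 µg, capitals mark the letters of the interferon-stimulated response element, GAAANNGAAA on either strand. Irgm1 holds a pair of overlapping matches.
Gbp2: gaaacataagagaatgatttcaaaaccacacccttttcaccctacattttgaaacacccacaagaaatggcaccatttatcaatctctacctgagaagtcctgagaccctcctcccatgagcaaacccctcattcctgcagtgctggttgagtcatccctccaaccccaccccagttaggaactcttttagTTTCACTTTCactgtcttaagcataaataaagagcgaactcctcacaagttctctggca
Irgm1: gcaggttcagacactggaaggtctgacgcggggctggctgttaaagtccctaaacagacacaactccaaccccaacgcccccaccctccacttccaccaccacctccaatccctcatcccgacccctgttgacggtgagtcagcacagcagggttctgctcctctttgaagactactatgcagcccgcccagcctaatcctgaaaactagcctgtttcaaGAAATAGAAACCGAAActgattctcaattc
Irgm2: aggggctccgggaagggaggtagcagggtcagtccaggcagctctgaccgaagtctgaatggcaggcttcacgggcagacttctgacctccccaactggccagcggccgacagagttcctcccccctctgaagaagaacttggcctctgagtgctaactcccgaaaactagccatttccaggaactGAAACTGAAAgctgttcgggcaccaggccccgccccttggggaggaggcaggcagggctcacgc

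For Hspa1a (chr17:34972157-34972406, minus strand), a chaperone gene that was lower at 162 µg of NRCWE-001, capitals mark a heat shock element, GAANNTTC. For Per1 (chr11:69098699-69098948, plus strand) and Tef (chr15:81802423-81802672, plus strand), genes of the clock that were lower at the high dose, capitals mark an E-box, CACGTG. The table gives 2 starts for each of the last pair, and the first is shown.
Hspa1a: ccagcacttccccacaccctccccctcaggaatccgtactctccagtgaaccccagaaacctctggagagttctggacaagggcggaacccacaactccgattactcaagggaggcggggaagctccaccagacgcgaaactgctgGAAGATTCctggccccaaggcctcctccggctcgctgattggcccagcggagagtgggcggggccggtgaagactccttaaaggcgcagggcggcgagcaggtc
Per1: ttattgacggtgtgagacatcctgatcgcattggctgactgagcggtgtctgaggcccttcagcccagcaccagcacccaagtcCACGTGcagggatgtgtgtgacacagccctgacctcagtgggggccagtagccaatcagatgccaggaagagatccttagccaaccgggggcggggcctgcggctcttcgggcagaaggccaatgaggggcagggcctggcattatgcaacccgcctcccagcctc
Tef: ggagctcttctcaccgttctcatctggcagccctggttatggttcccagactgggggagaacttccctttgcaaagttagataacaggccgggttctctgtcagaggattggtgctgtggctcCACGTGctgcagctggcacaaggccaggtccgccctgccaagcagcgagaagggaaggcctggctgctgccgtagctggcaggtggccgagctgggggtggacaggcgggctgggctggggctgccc

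Over the 32851 RefSeq promoters of 300 bases (250 before and 50 after the start), the interferon-stimulated response element was found in 3.44%, the heat shock element in 7.86% and the E-box in 7.15%. Among the interferon-stimulated genes listed below, 18 of 24 had a promoter in the table, and 12 of these (66.7%) held the interferon element. Of the 12 genes highest in rank, 8 had a promoter in the table, and 4 of these held it (Gbp2, Irgm1, Irgm2 and Spp1). Heat shock elements were found for 10 of 19 chaperone genes (52.6%) and E-boxes for 5 of 16 clock genes (31.2%), namely Bhlhe41, Ciart, Cry1, Per1 and Tef. A gene was counted if any of its annotated starts had a match, while the shares over all promoters count each start, so the units differ. These are matches of letters in a window, chosen for the interferon element after the values were seen.

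With both particles pooled, the 12 genes with the smallest p among those higher at 162 µg included the macrophage product Spp1, a group of interferon-inducible GTPases (Gbp2, Gbp6, Gbp8, Irgm1, Irgm2, Ifi47) and the mitochondrial kinase Cmpk2, and those with the smallest p among lower genes included Tspan4, Npr3 and the clock output genes Hlf and Dbp. No single gene passed the test. Limma called 0 of 15544 genes (0%) at an adjusted p below 0.05, and the smallest adjusted p was 0.451. At an unadjusted p below 0.05 there were 452 genes higher (2.91% of all genes) and 267 lower (1.72%) at 162 µg. The mean differed by more than 2-fold in 37 genes that were higher and 15 that were lower. There were 0 genes for which all 10 high-dose arrays lay above or below all 10 low-dose arrays.

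Spp1 encodes osteopontin, a secreted phosphoprotein of activated macrophages. Its levels at 162 µg were -2.35, -5.40, -4.42, -1.36 and -1.48 for NRCWE-001 and -4.22, -3.00, -4.13, -2.51 and -2.60 for NRCWE-002. At 18 µg they were -5.57, -5.39, -4.86, -4.79 and -5.08 for NRCWE-001 and -5.81, -5.89, -5.00, -5.19 and -4.37 for NRCWE-002. Of the high-dose arrays, 8 of 10 lay above every low-dose array, and 2 NRCWE-001 arrays lay among the low-dose levels. The difference was 2.05 ± 0.42 (SE, n = 10 and 10; limma, adjusted p = 0.451), with 2.13 for NRCWE-001 and 1.96 for NRCWE-002. Vehicle mice ranged from -5.35 to -5.04 and mice at 54 µg from -5.44 to -4.29.

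Gbp6, a guanylate-binding protein induced by interferon gamma, had levels of 2.06, 2.08, 2.12, 3.34 and 3.22 at 162 µg of NRCWE-001 and 2.25, 2.82, 1.48, 3.36 and 3.07 at 162 µg of NRCWE-002. At 18 µg the levels were 1.18, 1.5, 1.67, 1.57 and 1.19 for NRCWE-001 and 2.38, 1.60, 1.67, 1.54 and 1.5 for NRCWE-002. The groups overlapped, with 1 low-dose NRCWE-002 array at 2.38 and 1 high-dose NRCWE-002 array at 1.48, and 5 of 10 high-dose arrays lay above all low-dose arrays. The difference was 1.00 ± 0.22. Its relatives Irgm1 (0.76 ± 0.18), Irgm2 (0.65 ± 0.15), Ifi47 (0.62 ± 0.14), Gbp8 (0.43 ± 0.10) and Gbp2 (0.41 ± 0.10) had smaller differences in the same direction (SE). Genes of the Gbp and Irgm families are close in sequence, so probes may share signal.

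Other genes of the 12 with the smallest p in this direction were not GTPases. Lair1, an inhibitory collagen receptor of leukocytes, had the most complete separation, with 9 of 10 high-dose arrays above all low-dose arrays. Its levels had a lowest, median and highest of 0.02, 0.74 and 1.49 at 162 µg and -0.24, 0.23 and 0.28 at 18 µg, a difference of 0.65 ± 0.15. Nfkbiz, an inducible regulator of NF-kappaB target genes, differed by 0.70 ± 0.16, Cmpk2 by 0.71 ± 0.17, the junction protein Clmp by 0.58 ± 0.12 and Exoc3l4 by 0.41 ± 0.09. The unadjusted p of these 12 genes ran from 0.000102 to 0.000529, and each adjusted p was 0.451. At 54 µg the mean of all 12 lay between the low and the high dose, nearer to the low dose in 10.

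**Figure D1:**
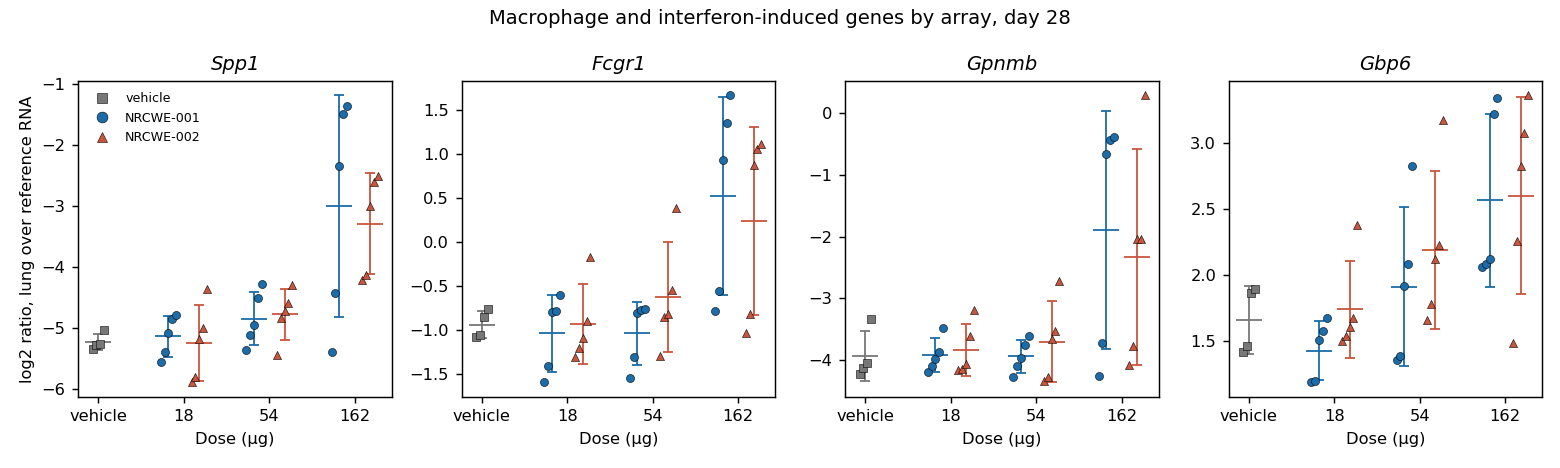
Levels of Spp1, Fcgr1, Gpnmb and Gbp6 in each mouse of day 28 (vertical axes, log2 ratio to reference) by group, from vehicle and 18 µg to 54 and 162 µg of each particle. Each point is an array, and the dash and bar are the mean ± SD of its group. At 162 µg some arrays of each particle sit far above the low dose (Spp1 up to -1.36, Gpnmb up to 0.29) while others lie at or near the low-dose levels (Spp1 -5.40, Gpnmb -4.26).

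The interferon-stimulated genes were the list with the largest positive median difference among the lists read. All 24 tested members had a higher mean at 162 µg, and 24 of 24 had an unadjusted p below 0.05, against 2.91% of all genes. The median difference was 1.13, against -0.003 over all genes, and it was 1.21 for NRCWE-001 and 1.04 for NRCWE-002. None passed the adjusted threshold. Cxcl10, a chemokine for activated T cells, differed most in this list, by 2.06 ± 0.64 (0.85 ± 2.00 against -1.22 ± 0.74, means ± SD). Irf7, a transcription factor that amplifies interferon production, differed by 1.60 ± 0.61, and the ubiquitin-like protein Isg15 by 1.60 ± 0.49. Smaller differences with less spread were found for Ifit2 (0.62 ± 0.16) and the RNA sensor Ddx58 (0.37 ± 0.12).

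Within the high dose, these genes divided the mice unevenly. The mean level over the interferon-stimulated genes at 162 µg was 1.35, 0.09, 0.01, 1.88 and 2.09 for NRCWE-001 and -0.23, 1.99, -0.12, 2.12 and 1.91 for NRCWE-002. At 18 µg it was -0.05, -0.15, 0.15, -0.13 and -0.09 for NRCWE-001 and 0.69, 0.15, -0.13, -0.08 and -0.11 for NRCWE-002. In each particle, 3 of 5 high-dose mice lay above all low-dose mice and the other 2 did not. One of these, the NRCWE-002 mouse at -0.23, lay below all low-dose mice. In the 6 high arrays, 19 to 24 of the 24 members exceeded every low-dose array, and in the other 4, 0 or 1 did. Of the 24 members, 19 had at least 6 of 10 high-dose arrays above all low-dose arrays, against 1.16% of all genes, and the 24 genes were read on the same mice, so they are not independent. Vehicle mice ranged from -0.07 to 0.06. At 54 µg the range was -0.27 to 1.81, where the highest was a single NRCWE-002 array with 22 members above all low-dose arrays.

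**Figure D2:**
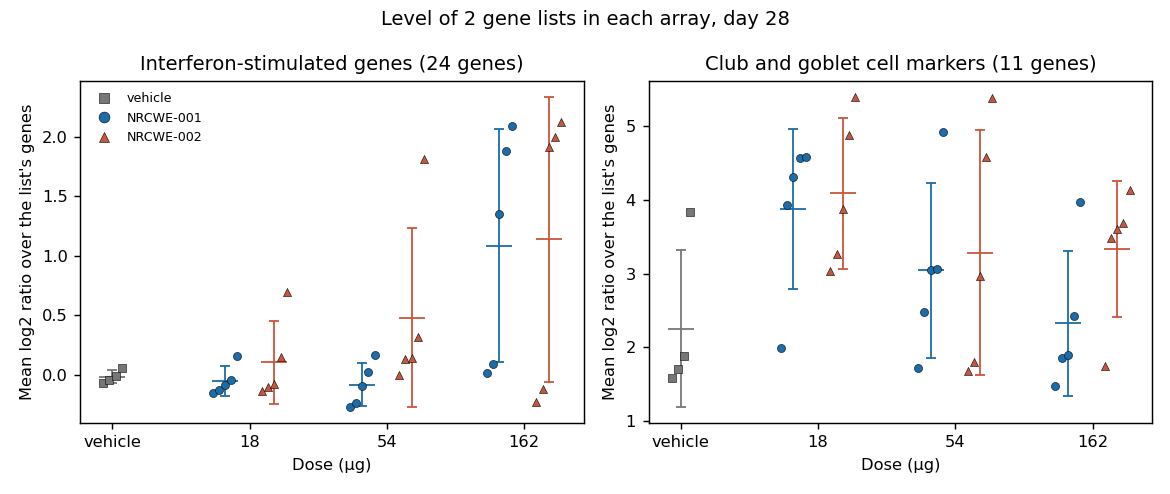
Mean level per array (vertical axes, log2 ratio to reference) of the 24 interferon-stimulated genes and of 11 club and goblet cell markers, by dose group on day 28. Each point is an array, and the dash and bar are the mean ± SD of its group. For the interferon genes 6 of the 10 arrays at 162 µg lie between 1.35 and 2.12 and the other 4 between -0.23 and 0.09; for the airway markers the doses overlap.

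How firmly these differences were called depended on the spread against which they were judged. When all 69 arrays shared 1 estimate of the spread through 14 group means, limma called 179 genes for the same contrast, 152 higher (0.978% of genes) and 27 lower (0.174%). Of the interferon-stimulated genes 22 of 24 were then called higher, as were Spp1 (adjusted p = 0.000398), Fcgr1 (adjusted p = 0.00143) and Gbp6 (adjusted p = 0.00226). The median SD of the interferon genes within a group was 1.03 and 1.30 at 162 µg on day 28 for NRCWE-001 and NRCWE-002, and 0.168 to 0.818 in the other 12 groups, so a shared spread is smaller than that of the high-dose mice themselves. In the fit of the 20 arrays, where limma called 0 genes, a fixed block for slide gave 1 call, Spink5 (0.89, adjusted p = 0.00755), and a random block for slide gave 5. In the fixed-block fit 682 genes were higher (4.39%) and 499 lower (3.21%) at an unadjusted p below 0.05, among them 19 of the 24 interferon-stimulated genes, all higher, and with scan day as the block 12 of the 24.

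Genes of macrophages and other phagocytes were read in a pair of lists. Of 22 phagocyte receptors 19 had a higher mean at 162 µg, 8 with an unadjusted p below 0.05 (against 2.91% of all genes), and the median difference was 0.26. The median was 0.56 for NRCWE-001, with 9 such members, and 0.08 for NRCWE-002, with 2. Fcgr1, the high-affinity IgG receptor, had levels of 0.94, -0.55, -0.79, 1.36 and 1.67 at 162 µg of NRCWE-001 and -1.03, 1.12, -0.82, 1.06 and 0.88 at 162 µg of NRCWE-002, and from -1.60 to -0.17 at 18 µg. The 6 high arrays were those high for the interferon genes, and Fcgr1 is itself inducible by interferon gamma. Its difference was 1.37 ± 0.34. Fcgr4 (0.53 ± 0.13), the RNA sensor Tlr7 (0.58 ± 0.16) and the C-type lectins Clec5a (0.66 ± 0.19) and Clec4e (0.79 ± 0.24) were also higher in mean, with adjusted p from 0.451 to 0.574.

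Among 24 genes of the macrophage lysosome and of lipid handling, 21 had a higher mean and 6 an unadjusted p below 0.05, with a median difference of 0.24. The median was 0.42 for NRCWE-001, with 9 such members, and 0.11 for NRCWE-002, with 1. Pooled, with slide as a fixed block, 15 were higher and 2 lower, against 4.39% and 3.21% of all genes. Gpnmb, a lysosomal glycoprotein of lipid-laden macrophages, had levels of -0.38, -3.73, -4.26, -0.44 and -0.66 at 162 µg of NRCWE-001 and -4.08, 0.29, -3.78, -2.04 and -2.04 at 162 µg of NRCWE-002. At 18 µg it ranged from -4.20 to -3.19. In 6 of 10 high-dose mice it was above every low-dose mouse, and in the other 4 it was not, a difference of 1.77 ± 0.53 (adjusted p = 0.560). The lipid receptor Trem2 (1.15 ± 0.41) and the protease Ctss (1.00 ± 0.32) differed in the same direction. Markers of alveolar macrophages as such did not share this: 5 of 11 were higher and 6 lower in mean, with a median difference of -0.12.

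The chemokine and cytokine lists leaned the same way with both particles pooled, with larger medians for NRCWE-001 than for NRCWE-002. Of 17 CC chemokines and receptors 13 had a higher mean, 5 with an unadjusted p below 0.05, and the median difference was 0.40. Ccl2 (1.29 ± 0.43), which draws monocytes, and Ccl4 (1.27 ± 0.41) and Ccl3 (0.85 ± 0.28), chemokines made by macrophages, were among them. Ccl24, an eosinophil chemokine, stood on the other side, with a difference of -1.22 ± 0.41. For NRCWE-001 the median of the CC list was 0.66, with 4 members higher and 0 lower at an unadjusted p below 0.05. For NRCWE-002 it was 0.15, with 0 higher and 3 lower. With slide as a fixed block and both particles pooled, 2 members were higher and 2 lower. Of 12 genes of the IL-1 family and inflammasome 11 were higher, 5 at an unadjusted p below 0.05, with Il1rn, the IL-1 receptor antagonist, at 0.85 ± 0.24. The median of this list was 0.41 for NRCWE-001, with 6 such members, and 0.02 for NRCWE-002, with 0. Acute phase genes were higher in mean for 17 of 17, 5 of them at an unadjusted p below 0.05, with a median of 0.22. For Saa4, first in that list, the probe was well above background on 1 array at 18 µg and 6 arrays at 162 µg, so its difference of 0.25 ± 0.07 lies near the limit of detection. Genes of alternative macrophage activation went the other way in mean, with 3 of 10 higher and a median of -0.21 (0.05 for NRCWE-001, -0.31 for NRCWE-002).

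The study had drawn lists called biclusters from models of lung disease in other data sets. Bicluster 7, from fibrosis models, was tested for 17 of its genes, and 14 had a higher mean at 162 µg, 9 with an unadjusted p below 0.05, with a median difference of 0.43. The 9 were Clec5a, Il1rn, Gpnmb, Cxcl10, Ccl3, Trem2 and Havcr2, which are known from macrophages or lymphocytes, Jchain of plasma cells (1.03 ± 0.43), and Zranb3, a DNA repair helicase (0.60 ± 0.20). For NRCWE-001 the median of Bicluster 7 was 0.69, with 11 genes higher at an unadjusted p below 0.05. For NRCWE-002 it was 0.18, with 0. Collagen and matrix genes, by contrast, were lower in mean for 23 of 31, with a median of -0.07. At an unadjusted p below 0.05, 3 were lower and 1 higher, and with slide as a fixed block 8 were lower and 0 higher. Bicluster 3, a chemokine list from bleomycin, infection and fibrosis models, had 13 of 16 genes higher and a median of 0.37 (0.57 for NRCWE-001, 0.06 for NRCWE-002). In it, 4 genes were higher at an unadjusted p below 0.05 (Fcgr1, Ccl2, Cxcl9 and Aif1) and Retnla, a product of alternatively activated macrophages, was lower (-0.65 ± 0.28).

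**Figure D3:**
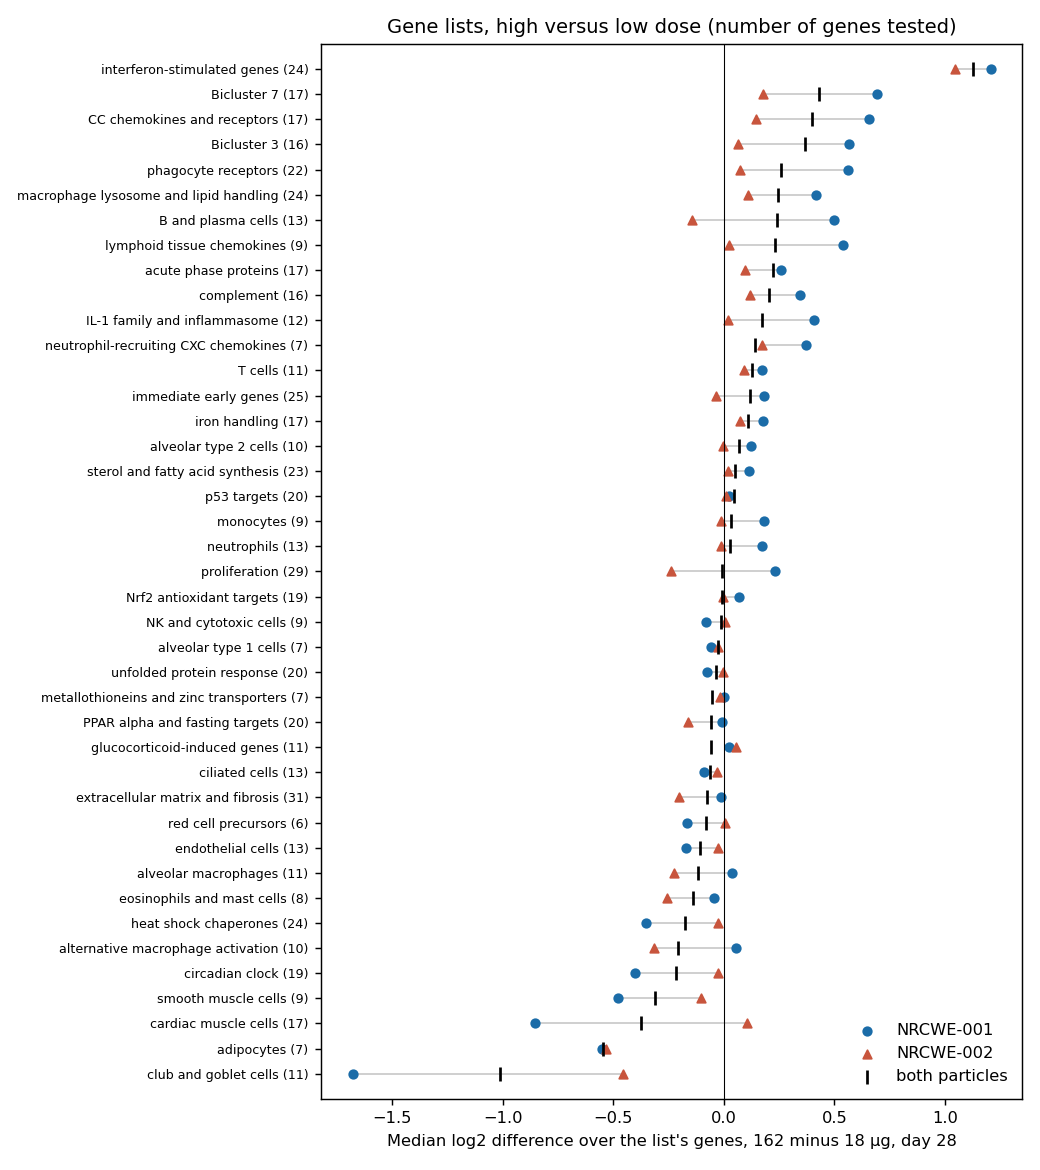
Median difference, 162 µg minus 18 µg (horizontal axis, log2), over the tested genes of each list, for NRCWE-001, NRCWE-002 and both particles together. The interferon-stimulated genes have the highest pooled median (1.13) and club and goblet cell markers the lowest (-1.01), while circadian clock and heat shock genes lie below 0 for NRCWE-001 (-0.40 and -0.35) and near 0 for NRCWE-002 (-0.02 and -0.03).

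With both particles pooled, other lists stayed near the background of all genes. Among 19 Nrf2 antioxidant targets 9 were higher and 10 lower in mean (median -0.01). Metallothioneins and zinc transporters had a median of -0.05, proliferation genes -0.01, PPAR alpha and fasting targets -0.06, p53 targets 0.04, and genes of sterol and fatty acid synthesis 0.05. In these 6 lists, 0 to 2 members had an unadjusted p below 0.05 in either direction. Proliferation genes, however, leaned opposite ways in the separate particles. Mice given NRCWE-001 had a median of 0.23 for this list, 4 members being higher and 0 lower by that threshold. Mice given NRCWE-002 had -0.24, 2 members being lower and 0 higher. Immediate early genes were higher in mean for 19 of 25 (5 with an unadjusted p below 0.05, median 0.12), and Nr4a1, a nuclear receptor of that kind, differed by 1.82 for NRCWE-001 and -0.35 for NRCWE-002. Complement genes (median 0.21), neutrophil-recruiting CXC chemokines (0.14), lymphoid tissue chemokines (0.23) and iron handling genes (0.11) had 1, 1, 1 and 3 such members, all higher. The unfolded protein response (median -0.04) had 1 lower member and glucocorticoid-induced genes (-0.06) 1 in each direction. With slide as a fixed block, immediate early genes had 0 members higher and 1 lower at an unadjusted p below 0.05 (median 0.02).

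Markers of the cell types that a piece of lung can hold were read beside these values. Monocyte markers were higher in mean for 7 of 9, but the median difference was only 0.03 and the lowest member was at -0.82. At an unadjusted p below 0.05, 3 were higher, among them Cx3cr1 (0.28 ± 0.07, 8 of 10 high-dose arrays above all low-dose arrays) and Ly6c2 (0.60 ± 0.17). The mean over the monocyte list ran from 0.87 to 1.59 at 18 µg and from 0.95 to 1.57 at 162 µg. T cell markers were higher for 9 of 11 (median 0.13), with 4 at an unadjusted p below 0.05, or 0 with slide as a fixed block. Their mean ran from 0.10 to 0.56 at 18 µg and from 0.15 to 0.84 at 162 µg. Neutrophil markers were higher for 9 of 13 (median 0.03), with 2 such genes, and ran from 1.33 to 1.90 and from 1.08 to 2.22. B and plasma cell markers had a median difference of 0.24 with 1 such gene, and markers of alveolar type 1, alveolar type 2, ciliated, NK and red cell lineages had 0 in either direction, with medians between -0.08 and 0.07. For B and plasma cell markers the median was 0.50 for NRCWE-001, with 6 such genes, and -0.15 for NRCWE-002, with 0. The part of these cells in the differences of the immune lists was not tested.

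Airway and connective tissue markers were lower in mean. All 11 club and goblet cell markers were lower at 162 µg, 6 with an unadjusted p below 0.05 against 1.72% of all genes, and the median difference was -1.01. Clca1, a secreted protein of goblet cells, had levels of 0.05, -0.02, 2.91, 0.30 and 0.14 at 162 µg of NRCWE-001 and 0.95, 0.92, 0.06, 3.04 and 2.70 at 162 µg of NRCWE-002. At 18 µg the levels were 3.87, 0.17, 6.40, 6.51 and 8.72 for NRCWE-001 and 9.50, 9.79, 0.50, 0.95 and 7.41 for NRCWE-002. The low-dose mice spanned nearly the whole range, and the difference was -4.28 ± 1.18 (adjusted p = 0.476). In vehicle mice Clca1 ranged from -0.04 to 1.37, and 7 of the 10 low-dose mice were at 3.87 or above, higher than every vehicle and high-dose mouse. The mucin Muc5b (-1.45 ± 0.57) and the secretoglobin Scgb3a1 (-1.23 ± 0.51) differed in the same direction.

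The mean over the club and goblet cell markers ran from 1.99 to 5.40 at 18 µg (median 4.12), from 1.48 to 4.14 at 162 µg (median 2.95), from 1.68 to 5.38 at 54 µg and from 1.58 to 3.84 in vehicle mice. Markers of smooth muscle were lower for 9 of 9, of endothelium for 13 of 13, of adipocytes for 7 of 7 and of cardiac muscle for 16 of 17, with 2, 0, 1 and 0 members at an unadjusted p below 0.05. These counts became 7, 2, 5 and 6 with slide as a fixed block, and that of the club and goblet cell markers became 8. All were lower, against 3.21% of all genes in that fit. Mean levels of the cardiac list ran from 0.07 to 3.38 at 18 µg and from -0.02 to 3.51 at 162 µg, so high and low levels occurred at both doses. The part of the tissue piece in the airway, muscle and fat differences was not tested. Markers of eosinophils and mast cells were lower for 7 of 8 (median -0.14), 2 with an unadjusted p below 0.05. Mcpt4, a mast cell protease, differed by -0.42 ± 0.11, and 7 of 10 high-dose arrays lay below all low-dose arrays, where at least 6 did so for 0.553% of all genes.

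No clock gene passed the adjusted threshold with both particles pooled. Of 19 clock genes 14 had a lower and 5 a higher mean, and 10 and 2 of these had an unadjusted p below 0.05, against 1.72% and 2.91% of all genes. With slide as a fixed block the counts were 6 and 1. Dbp, a clock output transcription factor, differed by -1.12 ± 0.29 and Hlf, its relative, by -1.02 ± 0.26. Arntl, which opposes them in phase, was higher by 0.80 ± 0.20, and Nfil3, a repressor that competes with Dbp for its sites, by 0.48 ± 0.22. Per1 differed by -0.56 ± 0.15. In none of these did the doses separate fully: Hlf had a lowest, median and highest level of 0.46, 0.76 and 2.34 at 162 µg and of 0.53, 2.20 and 2.58 at 18 µg.

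In mice given NRCWE-001 alone, 6 genes were called lower at 162 than at 18 µg and none higher. Limma called 6 of 15544 genes (0.0386%), namely Tspan4, Hsph1, Herpud1, Per2, Hspa1a and Tef, in the fit of the 20 arrays with 4 group means. A further 582 genes were higher (3.74%) and 380 genes, the 6 included, lower (2.44%) at an unadjusted p below 0.05. For each of the 6, all 5 arrays at 162 µg lay below all 5 at 18 µg, which held for 174 of all genes (1.12%), and the opposite order held for 135 (0.869%).

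Tspan4, a tetraspanin of membrane fibres left by migrating cells, had levels of 0.61, 0.34, 0.34, 0.31 and 0.16 at 18 µg and -1.04, -0.49, -1.17, -0.82 and -0.81 at 162 µg. The groups did not overlap, and the difference was -1.22 (limma, adjusted p = 0.000431). In NRCWE-002 mice the levels were -0.42, -0.53, -0.26, -0.40 and -0.58 at 18 µg and -0.65, -0.47, -0.33, -1.05 and -0.75 at 162 µg. Vehicle mice lay at -0.47 to -0.25 and mice at 54 µg at -1.05 to -0.26, so the low dose of NRCWE-001 was the group that stood apart.

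Hspa1a, the inducible chaperone HSP70, had levels of 3.11, 2.96, 3.07, 2.70 and 2.80 at 18 µg and 1.11, 1.13, 1.74, 1.60 and 1.95 at 162 µg of NRCWE-001. Its difference was -1.42 (limma, adjusted p = 0.0104). For NRCWE-002 it was at 1.14, 2.02, 1.36, 1.27 and 1.60 at 18 µg and 1.48, 2.46, 1.21, 2.16 and 1.89 at 162 µg, where the groups overlapped. In vehicle mice it was at 0.80, 0.05, 1.20 and 0.75, and at 54 µg between 0.87 and 2.30. Its near-identical copy Hspa1b, which its probes may not tell apart, differed by -0.76 for NRCWE-001.

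Hsph1, a co-chaperone of HSP70, had levels of 0.41, 0.17, 0.23, -0.07 and -0.02 at 18 µg and -0.98, -1.39, -1.34, -1.04 and -0.97 at 162 µg of NRCWE-001. It was lower by 1.29 on the log2 scale at 162 than at 18 µg (limma, adjusted p = 0.00164). Vehicle mice were at -1.52 to -0.94, close to the high dose. Herpud1, an endoplasmic reticulum protein of protein disposal, had levels of 1.22, 1.44, 1.82, 1.54 and 1.57 at 18 µg and 0.56, 0.84, 0.70, 0.93 and 0.81 at 162 µg. It was lower by 0.75 at 162 than at 18 µg (limma, adjusted p = 0.00176), and vehicle mice ranged from 0.44 to 1.22.

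The other called pair were clock genes. Per2, a repressor within the clock loop, had levels of 1.03, 1.13, 0.96, 1.03 and 1.03 at 18 µg and -0.02, 0.30, 0.09, 0.20 and 0.25 at 162 µg of NRCWE-001. It was lower by 0.87 at 162 µg (limma, adjusted p = 0.0104). Tef, a transcription factor related to Dbp, had levels of 0.68, 0.77, 0.65, 0.65 and 0.70 at 18 µg and 0.04, 0.23, -0.16, 0.03 and 0.09 at 162 µg. It was lower by 0.64 at 162 µg (limma, adjusted p = 0.0144). Both genes varied little among the 5 mice at 18 µg (SD 0.06 and 0.05). In vehicle mice Per2 was at 0.06 to 0.75 and Tef at 0.20 to 0.46, below every NRCWE-001 mouse at 18 µg.

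**Figure D4:**
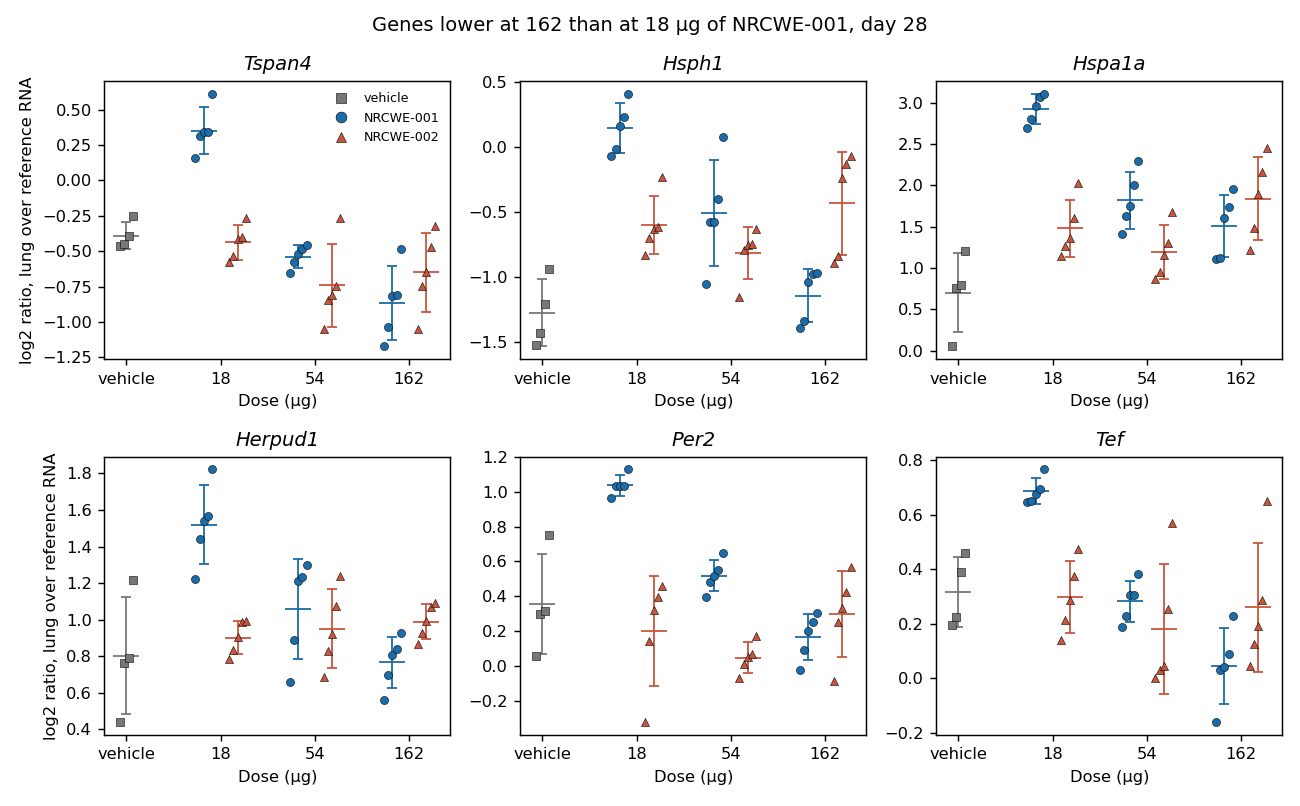
Levels of the 6 genes called for NRCWE-001 (vertical axes, log2 ratio to reference) in each mouse of day 28, by dose group of both particles and vehicle. Each point is an array, and the dash and bar are the mean ± SD of its group. For all 6 genes the 5 arrays at 18 µg of NRCWE-001 lie above the 5 at 162 µg (Hspa1a 2.70 to 3.11 against 1.11 to 1.95), while the doses of NRCWE-002 overlap.

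Of the 6 called genes, Hsph1 and Hspa1a were in the list of heat shock chaperones and Per2 and Tef in that of the clock. Of 24 heat shock chaperones 11 were lower in NRCWE-001 mice with an unadjusted p under 0.05 (2.44% of all genes were), the median difference was -0.35, and in 6 of them all high-dose arrays lay below all low-dose arrays. For NRCWE-002 the count was 0 and the median -0.03. With slide as a fixed block 18 chaperones were lower for NRCWE-001, in a fit where 1815 of 15544 genes had an unadjusted p below 0.05 in either direction, against 962 without the block. Without the block, 12 of 19 clock genes were lower and 2 higher in NRCWE-001 mice at an unadjusted p below 0.05. Their median was -0.40, and 8 lay fully below. Hlf differed by -1.65, Dbp by -1.8 and Arntl by 1.23. For NRCWE-002 the median was -0.02 and 1 clock gene, Per1, was lower at an unadjusted p below 0.05 (-0.51).

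The 6 calls were not equally stable. With slide as a fixed block, which compares mice on the same slide, Herpud1, Hsph1 and Per2 were still called, while Tspan4 (-1.20, adjusted p = 0.0574), Hspa1a (-1.5, adjusted p = 0.0765) and Tef (-0.58, adjusted p = 0.0826) were not. With scan day as a fixed block the same genes of the 6 kept and lost their calls. With slide as a random block 264 genes were called for NRCWE-001, 118 higher and 146 lower, the 6 among them. Leaving out 1 array gave 5 to 13 calls, with 13 when replicate 1 of the high dose was omitted and 11 when replicate 3 of the low dose was, and all 6 genes were in both of these. Tef lost its call in 4 of the 10 omissions (adjusted p up to 0.0722) and with the scanner's processed signals (adjusted p = 0.228). Per2 lost it with normexp background correction (adjusted p = 0.0701) and Hspa1a without both arrays of slide 18 (adjusted p = 0.0677).

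In mice given NRCWE-002, limma called 0 genes (0%), and 88 genes were higher (0.566%) and 80 lower (0.515%) at an unadjusted p below 0.05. All 5 high-dose arrays lay above all 5 low-dose arrays for 8 genes (0.0515%) and below them for 4 (0.0257%). Interferon-stimulated genes had a median difference of 1.04 with 13 of 24 at an unadjusted p below 0.05, against 19 of 24 and a median of 1.21 for NRCWE-001. Ccl24 (-1.89) and the alternative activation genes Retnla (-1.04), Arg1 (-0.94) and Chil4 (-1.44) were among the lower members of the immune lists for this particle, and Ccl17, a ligand of CCR4, differed by -1.27.

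Whether the dose difference itself differed between the particles was tested as an interaction, and limma called 0 of 15544 genes (0%), with 185 genes higher (1.19%) and 162 lower (1.04%) at an unadjusted p below 0.05. The smallest adjusted p was 0.0676, for Hsph1 (NRCWE-002 minus NRCWE-001, 1.46 ± 0.23, SE) and Herpud1 (0.84 ± 0.14), followed by Hspa1a (1.78 ± 0.31, adjusted p = 0.0815). Tspan4 had an interaction of 1.01 ± 0.19 (adjusted p = 0.175). For Spp1 the interaction was -0.18 ± 0.87 and for Fcgr1 -0.38 ± 0.69, with standard errors larger than the interaction in both, so a sizeable difference between the particles could not be detected for them. Normexp background correction, the whole gene set without a detection filter and scan day as a block each gave 2 calls, and slide as a random block gave 50.

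The dose difference of day 28 was also set against the same difference 1 day after exposure. On day 1, 733 of the 15544 genes were called between 162 and 18 µg, 521 higher and 212 lower, in a fit of 40 arrays. The 2 days differed for 64 genes (0.412%), and at an unadjusted p below 0.05 the difference was higher on day 28 for 4.34% of genes and lower for 5.37%. In 47 of these the day 28 difference was the lower one and in 17 the higher one. All 47 had a positive difference on day 1, 44 of them called there, and all 17 had a negative one, and for 59 of the 64 the difference of day 28 was under 0.5 in size.

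Of the 64 genes, 6 were in the acute phase list, which had 17 tested members, and 5 in the unfolded protein response list, which had 20. Saa1 had a difference of 3.65 on day 1 and 0.60 on day 28 (change -3.05, adjusted p = 0.0244), Saa2 of 2.66 and 0.13 (-2.52 ± 0.44, SE, adjusted p = 0.00819), Orm2 of 2.70 and 0.33 (-2.37, adjusted p = 0.0130), and Hpx, the haem-binding protein, of 1.32 and 0.18 (-1.14, adjusted p = 0.0109). Saa1 and Saa2 are near-identical genes. In the unfolded protein response list the called genes included Manf, a secreted stress factor, with 0.85 on day 1 and -0.17 on day 28, Sdf2l1 with 1.18 and -0.02, and Hspa5, the chaperone of the endoplasmic reticulum, with 0.56 and -0.05.

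Most of the 64 genes were in neither list. The protease inhibitor Timp1 had a difference of 2.57 on day 1 and 0.20 on day 28 (adjusted p = 0.0228), Pdpn of 0.75 and -0.02 (adjusted p = 0.00281) and the metalloprotease Adamts9 of 0.46 and -0.21 (adjusted p = 0.000216). Ccl17 went from 1.62 to -0.65 and Ccl24 from 1.06 to -1.22. Gbp8, an interferon-inducible GTPase, ran the other way, from -0.28 on day 1 to 0.43 on day 28 (adjusted p = 0.00872), and Hsph1 went from 0.28 to -0.56 (adjusted p = 0.0244). The 24 interferon-stimulated genes had a median dose difference of 0.40 on day 1 and 1.13 on day 28, and 0 of them were called between the days.

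**Figure D5:**
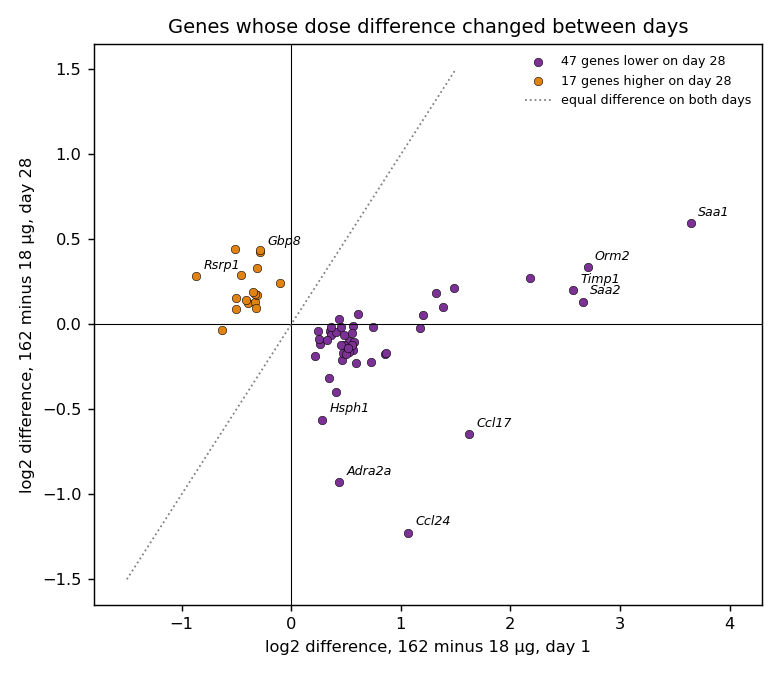
Dose difference of the 64 genes called between the days, on day 1 (horizontal axis) and day 28 (vertical axis), each as 162 µg minus 18 µg in log2 units over both particles. Each point is a gene. The 47 genes to the right of 0 on day 1 reach 3.65 (Saa1) there and lie mostly between -0.5 and 0.5 on day 28, and the 17 genes to the left had negative differences on day 1.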

How the data were processed

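Lung RNA of 69 mice was hybridised to two-colour Agilent arrays (4x44K, 1 mouse per array, no dye swap), of which 20 entered the dose comparison. Per the file headers, spot intensities were extracted by the authors with Agilent Feature Extraction 11.0.1.1. The deposited log2 ratios of lung (Cy5) over reference (Cy3), LOWESS-normalized by the authors, were the values used. They correlated at 0.994 to 0.999 per array with loess log2 ratios computed here without background correction and at 0.987 to 0.995 with normexp and loess ratios, so background seems not to have been subtracted and ratios of dim probes are compressed.

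Of 41174 probes, 27479 had a gene symbol through the platform annotation and the RefSeq table of GRCm38.p6. A probe was kept where the Cy5 signal was well above background on 5 or more of the 20 arrays (22732 with a symbol), and the median over the probes of a gene gave 15544 genes, 10017 of them with 1 probe. Different probes of paralogous genes (Hspa1a and Hspa1b, Saa1 and Saa2, the Gbp and Oas families) may cross-hybridise. Linear models with particle as a term were fitted with limma 3.58.1 (lmFit and eBayes, R 4.3.3, data.table version 1.17.8), with Benjamini-Hochberg adjustment over all genes and a threshold of 0.05. The particle-specific and interaction contrasts came from 4 group means over the same 20 arrays and the day comparison from 40 arrays. The scripts were tested on simulated data. Replicate numbers are names in accession order. The labels give 1 mouse per array, and the number of arrays limits the precision.

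Genes were named by rule: the 12 with the smallest p in each direction and the same sign in both particles (none being called), the 2 members with the smallest p of each pathway list, and up to 4 genes each of the interaction and day comparisons. Further members were named as examples after their values were seen. The comparison, lists and tests were chosen with earlier results of these data known. Alternatives were other background correction and scaling, detection filters, probe summaries, slide or scan day as a block, all 69 arrays in 1 fit, a slope over dose and leaving out arrays. Leaving out both arrays of slide 18, which had the most spots above background, was chosen after seeing the data.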

Additional observations from a re-analysis of the deposited data

Results flagged for a closer look

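In 13 of 296 groups of 5 arrays (74 genes in 4 groups, 4.39%), 1 array lay far from the other 4, and chance alone sets apart about 1 in 20 groups. At 18 µg of NRCWE-001 these were Exoc3l4 in replicate 1 (-0.0921), Il1rn in replicate 4 (-0.272) and Saa4 in replicate 2 (-0.179). At 162 µg of NRCWE-001 they were Clca1 (2.91) and Adamts9 (1.02) in replicate 3 and Slc30a1 in replicate 1 (0.696). At 18 µg of NRCWE-002 they were Gbp6 (2.38) and Pdk4 (4.22) in replicate 1, Lair1 in replicate 2 (-0.234) and Npr3 in replicate 3 (1.61). At 162 µg of NRCWE-002 they were Mcpt4 in replicate 5 (0.574), Scd1 in replicate 3 (3.03) and Saa2 in replicate 4 (0.828). All are log2 ratios to reference.

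The dose difference of day 28 differed from that of day 1 in 64 genes by limma's test of that difference. The change from day 1 to day 28 was -2.52 for Saa2, -0.76 for Pdpn, -0.67 for Adamts9, -0.38 for Ubl4a, -0.84 for Hsph1 and -0.57 for Creld2, and 0.71 for Gbp8.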

How the results depend on the processing

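For both particles together, the count of 0 called genes became 1 with slide as a fixed block, 5 with slide as a random block, 1 with scan day as a block, 3 in within-slide differences (Cfd, Slc26a9 and Spink5) and 179 with all 69 arrays in 1 fit. The other alternatives gave 0. In those that left out no single array, 629 to 842 genes had an unadjusted p below 0.05 by limma, against 719 in the main setting. The 6 calls of NRCWE-001 became 264 with slide as a random block and 5 to 9 with the other settings of values, filters and blocks. These were not always the same genes. With slide or scan day as a fixed block, only Herpud1, Hsph1 and Per2 of the 6 were called, beside genes not called in the main setting. The interaction had 2 calls with normexp, 2 without a detection filter, 50 with slide as a random block and 2 with scan day. The 64 genes of the day comparison became 38 with the scanner's processed signals (34 shared), 259 with slide as a fixed block (43 shared), 642 with slide as a random block and 607 with scan day (all 64 shared in both). The cause of these shifts was not tested.

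Leaving out 1 array at a time gave 0 to 0 calls for both particles, 5 to 13 for NRCWE-001, 0 to 0 for NRCWE-002, 0 to 4 for the interaction (4 without replicate 2 at 162 µg of NRCWE-002) and 50 to 174 for the day comparison. The last was 174 without day 1 replicate 5 at 162 µg of NRCWE-001, 136 without day 1 replicate 5 and 119 without day 28 replicate 2 at 162 µg of NRCWE-002, and 98 without day 28 replicate 1 at 162 µg of NRCWE-001. Of 2898 alternative values of named genes, 2896 kept their direction, 14 lost and 56 gained a call. These genes were named by their small p in the same arrays, and many alternatives left out only 1 array, so the direction was likely to be kept. Both reversals were of Cdca8 (main value -0.06), at 0.035 with the scanner's processed signals and at 0.00299 without replicate 1 at 162 µg of NRCWE-002, in a range of -0.0895 to 0.00299 over the arrays left out. No paired analysis was possible because the labels carry no replicate numbers that pair mice across doses; pairing by slide is the within-slide comparison above, on 7 slides with both doses of 1 particle. Slides held 77.1% of the residual sum of squares. With 20 arrays on 11 slides, slide terms take up a large share of it even without a slide effect. Dim probes limit what low signals can show.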
